A study of Homo sapiens with 4 samples.

Results

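The 41 collagen genes measured here are those whose symbol is COL, a number, A and a number, such as COL1A1. They were taken from 17687 named genes on the array, each represented by 1 probe set, the group of probes that reads one transcript. For every collagen gene there was a single probe set. They divide into 10 fibrillar, 6 basement membrane and 25 other collagens. A further 3 collagen genes of the class lists were not analysed here.

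The arrays were made from SK-N-AS, an established human neuroblastoma line. The treated group was exposed to the compound BG-P400-TAT at 30 µM for 48 h and the untreated group to phosphate-buffered saline for the same time, with 2 arrays per group called biological replicates by the design text. The comparison asks which genes respond to the compound in these cells. Nothing in the labels says whether the cultures of a group were separate, and each p-value measures only the spread between arrays, which may be technical. In RNA of whole cultures, fewer cells of a type and less RNA per cell cannot be told apart.

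Collagens are secreted proteins built from chains that wind around each other in a helix of repeated glycine-containing units. Fibrillar collagens, such as types I and V, assemble into the tensile fibrils of connective tissue. Type IV collagens form the sheet of the basement membrane, and type VI forms beaded microfilaments close to cells. Fibril-associated collagens sit on the surface of fibrils, and transmembrane collagens stay anchored in the cell membrane. In neuroblastic tumours, collagen is best known as a product of the Schwannian and fibroblastic stroma around the tumour cells.

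Type IV genes lie in head-to-head pairs that are read in opposite directions from a shared stretch of DNA. The members of 2 of the 3 pairs differed in whether they stood above background. For each of those 2 pairs the promoter window of the plus-strand gene is shown. From the pair with neither gene above background, COL4A3 and COL4A4, the COL4A3 window is shown beside them. RefSeq promoter windows on GRCh38.p14, of 300 bases each, were matched for 30 of the 41 genes. The start sites of COL4A2 and COL4A1 are 127 bases apart, those of COL4A5 and the nearer start of COL4A6 380 bases, and those of COL4A3 and COL4A4 419 bases. The 3 windows below run 5′ to 3′ on the plus strand at chr13:110307034-110307333, chrX:108439588-108439887 and chr2:227164374-227164673, and capitals mark every CCAAT box (CCAAT or ATTGG) and GC box (GGGCGG or CCGCCC).
COL4A2: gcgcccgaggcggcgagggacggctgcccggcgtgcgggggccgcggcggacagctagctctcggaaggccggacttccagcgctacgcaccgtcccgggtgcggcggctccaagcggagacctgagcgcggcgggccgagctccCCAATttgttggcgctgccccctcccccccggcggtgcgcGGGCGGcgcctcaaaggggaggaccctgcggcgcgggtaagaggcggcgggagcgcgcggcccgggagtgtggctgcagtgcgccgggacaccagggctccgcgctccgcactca
COL4A5: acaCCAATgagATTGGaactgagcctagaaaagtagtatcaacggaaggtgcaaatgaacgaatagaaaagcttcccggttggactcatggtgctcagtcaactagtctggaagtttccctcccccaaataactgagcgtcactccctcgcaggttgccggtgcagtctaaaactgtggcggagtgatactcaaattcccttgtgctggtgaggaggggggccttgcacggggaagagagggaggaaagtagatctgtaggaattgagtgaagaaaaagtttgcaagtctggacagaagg
COL4A3: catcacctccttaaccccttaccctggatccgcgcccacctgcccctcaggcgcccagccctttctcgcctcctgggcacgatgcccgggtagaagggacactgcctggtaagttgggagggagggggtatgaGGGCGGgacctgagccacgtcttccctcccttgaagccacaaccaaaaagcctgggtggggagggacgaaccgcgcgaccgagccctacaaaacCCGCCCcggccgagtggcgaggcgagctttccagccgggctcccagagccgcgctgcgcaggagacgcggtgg
The COL4A2 window held 1 CCAAT box and 1 GC box, the COL4A5 window 2 CCAAT boxes and 0 GC boxes, and the COL4A3 window 0 CCAAT boxes and 2 GC boxes. Neither motif overlapped the other, and a match is only a run of letters. Of all 35116 promoter windows of this length, 34.6% held a CCAAT box and 45.0% a GC box on either strand. None of the 3 windows held TATAAA or its reverse TTTATA, found in 11.5% of all windows. The start site of COL4A1, read from the minus strand, lies at base 124 of the COL4A2 window. The COL4A5 and COL4A3 windows do not hold the start site of the partner gene, so they show only part of the stretch between the start sites. They share 121 bases with the window of the nearer COL4A6 start and 82 bases with that of COL4A4. Among the partner windows, not printed, that of COL4A1 held 1 CCAAT box and 2 GC boxes. That of the nearer COL4A6 start held 3 CCAAT boxes and 0 GC boxes, and that of COL4A4 held 0 of each. Any link between these motifs and the level of a gene was not tested.

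Values are log2 expression as deposited by the authors. A gene was called above background where its mean over the 4 arrays exceeded 6.96, the 95th percentile of 612 negative-control probe sets. For a single array its own 95th percentile was used, at 7.19 and 7.25 on treated replicates 1 and 2 and 7.31 and 7.64 on untreated replicates 1 and 2. Untreated replicate 2 stood apart, with a median absolute log2 difference of 0.24 to each of the other 3 arrays, against 0.19 to 0.21 between those. Adrenergic and mesenchymal neuroblastoma markers were both present, with 5 of 7 and 6 of 6 measured genes above background, but TH and DBH, enzymes of catecholamine synthesis, were above it on no array. Of fibroblast markers 5 of 6 were above background, of Schwann cell markers 0 of 3 and of endothelial markers 0 of 5. PTPRC, a leukocyte gene, was above background on all 4 arrays, and the other 3 measured leukocyte markers were above it on none.

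Of the 41 collagen genes, 10 (24.4%) were above background, where 49.3% of all named genes were. Type VI collagen was the class with the highest share, at 3 of 5 genes, followed by type IV and the transmembrane class at 2 of 6 and 1 of 3. Fibrillar collagens had 3 of 10 above background and fibril-associated collagens 1 of 10. The multiplexins, whose long chains carry cleavable end fragments, had 0 of 2, the hexagonal network collagens 0 of 3 and the unclassed genes COL26A1 and COL28A1 0 of 2. In the 3-way division the counts were 3 of 10 fibrillar, 2 of 6 basement membrane and 5 of 25 other collagens. These class counts are small, and the differences between them were not tested.

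**Figure D1:**
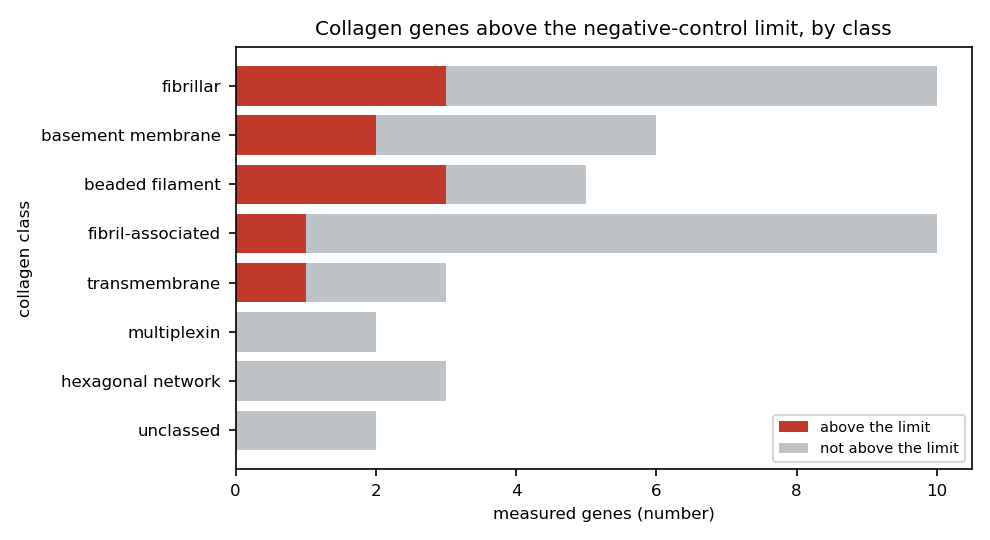
Number of measured collagen genes in each class (horizontal axis) that were above the negative-control limit (red) or not (grey). Type VI, the beaded filament class, has 3 of 5 above the limit, and 3 classes have none.

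On single arrays, 8 of the 41 (19.5%) exceeded the array's own limit on all 4 arrays, where 43.3% of all named genes did. COL6A3 did so on 3 arrays and COL1A1 on 2, and the other 31 did so on no array. The counts per array were 10 and 9 on the treated arrays, and 10 and 8 on untreated replicates 1 and 2, the lowest on the array with the highest limit. Just inside the 6.96 limit lay COL1A1 with a mean of 7.25, and just outside it COL20A1 with a mean of 6.51.

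**Figure D2:**
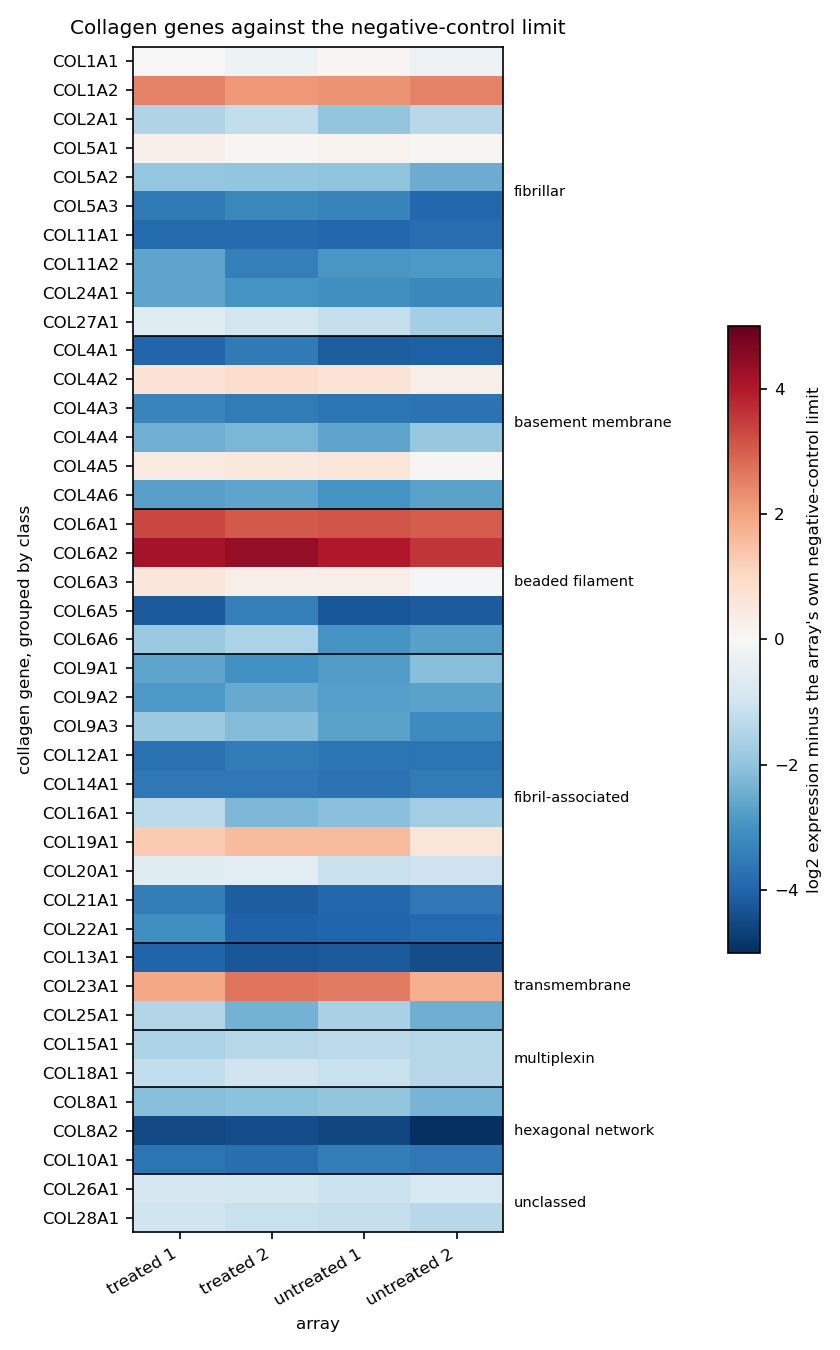
Log2 expression of the 41 collagen genes (rows, grouped by class) on each array (columns, treated then untreated), minus that array's own negative-control limit. Red cells are above the limit and blue cells below it, and 8 of the 10 genes above background are above the limit on all 4 arrays.

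For no collagen gene did limma give an adjusted p under 0.05 for treated against untreated cells, and 0% of all 21448 probe sets tested reached it. At an unadjusted p under 0.05, where 5.08% of all probe sets fell, there were 3 of the 41. These were COL6A6 and COL9A3, with positive differences, and COL10A1, with a negative one. They were named after their values were seen, and since all 3 lay below background on every array their differences are not given as changes. None of the 10 genes above background had an unadjusted p under 0.05, where 2.4% of the named genes above background did, 1.89% higher and 0.504% lower in treated cells. The 95% confidence intervals of all 10 included 0, as did those of 8513 of the 8722 named genes above background. All 10 intervals lay within 2-fold in both directions, with bounds from 0.539-fold to 1.66-fold, where 95.7% of those named genes did. A difference of 2-fold or more was therefore outside the interval for each of the 10, and smaller ones were not resolved.

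Among fibrillar collagens, COL1A1 encodes the α1 chain of type I collagen, the main fibril protein of connective tissue. COL1A1 had log2 values of 7.21 and 7.01 in treated cells, against 7.42 and 7.36 in untreated cells. Both treated values were below both untreated values, although COL1A1 was above the array's own limit only on replicate 1 of each group. The difference was -0.28 (95% confidence interval -0.73 to 0.16, limma adjusted p = 0.949). That difference was larger than the gap between replicates in either group. How often this held over all named genes was not counted.

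COL1A2, the α2 chain of type I collagen, stood at 9.67 and 9.43 in treated cells, against 9.56 and 10.12 in untreated cells. The groups overlapped, because treated replicate 1 lay between the untreated arrays, and the highest value was that of untreated replicate 2. The difference was -0.29 (interval -0.87 to 0.29, limma adjusted p = 0.963). Without untreated replicate 2 it was -0.0083.

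COL5A1 encodes a chain of type V collagen, which nucleates type I fibrils. It had 7.43 and 7.35 in treated cells and 7.49 and 7.72 in untreated cells, each above its array's own limit. The groups did not overlap, and the treated values were the lower. The difference was -0.21 (interval -0.67 to 0.24, limma adjusted p = 0.964), and -0.10 without untreated replicate 2. COL5A2, whose chain joins that of COL5A1 in type V collagen, was above background on no array, at 5.27 and 5.27 in treated cells and 5.31 and 5.14 in untreated cells. The other fibrillar genes, COL2A1, COL5A3, COL11A1, COL11A2, COL24A1 and COL27A1, were also below background, and the 7 fibrillar genes below it ranged from 3.34 to 6.58 over all arrays.

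Type IV collagen showed a split within 2 of its gene pairs. COL4A2, the α2 chain, was above the limit on all 4 arrays, at 7.92 and 8.11 in treated cells and 7.995 and 7.95 in untreated cells. COL4A1, the α1 chain that pairs with it in the common basement membrane protomer and is read from the shared promoter printed above, was above the limit on none, at 3.22 and 3.69 in treated cells and 3.21 and 3.56 in untreated cells. COL4A5, the α5 chain mutated in Alport syndrome, was likewise above the limit on all 4 arrays, at 7.63 and 7.77 in treated cells and 7.92 and 7.71 in untreated cells. Its neighbour COL4A6 was above the limit on none, at 4.49 and 4.62 in treated cells and 4.31 and 4.97 in untreated cells. Neither member of the pair COL4A3 and COL4A4, chains of the kidney glomerulus, was above the limit on any array. Probe sets differ in brightness for the same amount of RNA, so these are statements on each probe set against background. Whether the dim probe sets of COL4A1 and COL4A6 read less RNA or respond less was not tested.

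The groups overlapped for both type IV genes above background. The difference of COL4A2 was 0.05 (interval -0.40 to 0.49, limma adjusted p = 0.997), and without treated replicate 2 it turned to -0.050. The difference of COL4A5 was -0.12 (interval -0.57 to 0.34, limma adjusted p = 0.992), and -0.010 without untreated replicate 1 or -0.23 without untreated replicate 2.

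The 3 classical chains of type VI collagen were all above background. COL6A1, the α1 chain, stood at 10.53 and 10.30 in treated cells and 10.45 and 10.69 in untreated cells, with overlapping groups and a difference of -0.15 (interval -0.63 to 0.32). With an array left out it ranged from -0.27 to -0.037. COL6A2, the α2 chain, stood at 11.36 and 11.63 in treated cells and 11.30 and 11.23 in untreated cells. Both treated values of COL6A2 were above both untreated ones, by a difference of 0.23 (interval -0.23 to 0.69, limma adjusted p = 0.963), which was 0.093 without treated replicate 2 and 0.37 without treated replicate 1. COL6A3, the large α3 chain, stood at 7.77 and 7.55 in treated cells and 7.59 and 7.55 in untreated cells, and its untreated replicate 2 fell below that array's own limit. The difference of COL6A3 was 0.09 (interval -0.36 to 0.54) and turned to -0.023 without treated replicate 1. COL6A5 and COL6A6, later-described chains that can stand in for α3, were above background on no array.

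Of the remaining classes, a single fibril-associated and a single transmembrane gene were above background, each on all 4 arrays. COL19A1, a fibril-associated chain, stood at 8.51 and 8.84 in treated cells and 8.90 and 8.25 in untreated cells. Its highest and lowest values both came from untreated arrays, and the difference was 0.10 (interval -0.53 to 0.73). COL23A1, a transmembrane collagen, stood at 9.12 and 9.93 in treated cells and 9.91 and 9.46 in untreated cells, the widest gap between treated replicates among the 10 genes. Its difference was -0.16 (interval -0.89 to 0.57). The sign of COL19A1 turned without untreated replicate 2 (-0.23) or treated replicate 2 (-0.063), and that of COL23A1 without treated replicate 1 (0.24) or untreated replicate 1 (0.065).

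**Figure D3:**
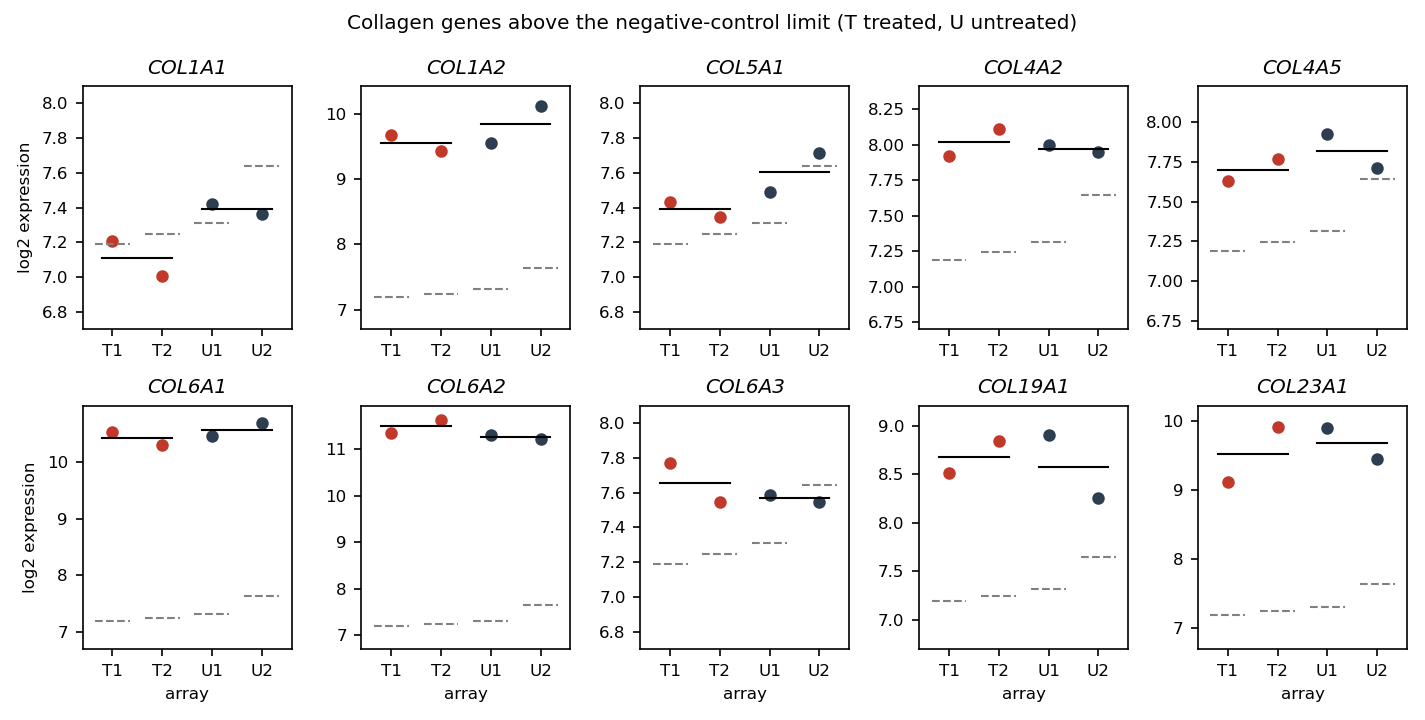
Log2 expression (vertical axes, scaled per gene) of the 10 collagen genes above background on treated replicates 1 and 2 (T1, T2, red) and untreated replicates 1 and 2 (U1, U2, dark blue). Black lines are group means and grey dashes each array's own negative-control limit, and of these 10 genes the groups are apart for COL1A1, COL5A1 and COL6A2 only.

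The groups did not overlap for 3 of the 10 genes above background. These were 1 higher in treated cells (COL6A2), where 21.2% of the named genes above background were so, and 2 lower (COL1A1 and COL5A1), where 11.4% were so. All 3 fibrillar genes above background had negative differences, with a median of -0.28, and leaving out an array gave medians from -0.39 without treated replicate 1 to -0.10 without untreated replicate 2. The fibroblast markers above background had a median of -0.16, with 4 of 5 negative, which was 0.0045 without untreated replicate 1. LUM and DCN are in this list and also among the fibril partners. Mesenchymal markers above background had a median of 0.11 with 5 of 6 positive, and adrenergic markers 0.16 with 4 of 5 positive. Without untreated replicate 2 the adrenergic median was -0.12. Summed over all 6 measured fibroblast markers, log2 levels were 65.2 and 64.7 in treated cells and 65.7 and 65.7 in untreated cells. This sum includes DPT, which was above background on no array. Sums over all measured mesenchymal markers were 69.3 and 67.7 in treated cells and 67.9 and 67.2 in untreated cells. For adrenergic markers they were 63.7 and 63.2 in treated cells and 63.5 and 61.6 in untreated cells. The part of any marker list in the fibrillar differences was not tested. The 2 basement membrane genes had a median of -0.036, which ranged from -0.12 without treated replicate 2 to 0.047 without treated replicate 1. The 5 other genes had a median of 0.09, which ranged from -0.037 without treated replicate 2 or untreated replicate 2 to 0.24 without treated replicate 1. Over all 10 genes 4 differences were positive, with a median of -0.14, beside 58.8% positive and a median of 0.040 over the 8722 named genes above background. The median of the 10 turned to 0.027 without untreated replicate 1. With 3, 2 and 5 genes to a class, none of these medians was tested.

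**Figure D4:**
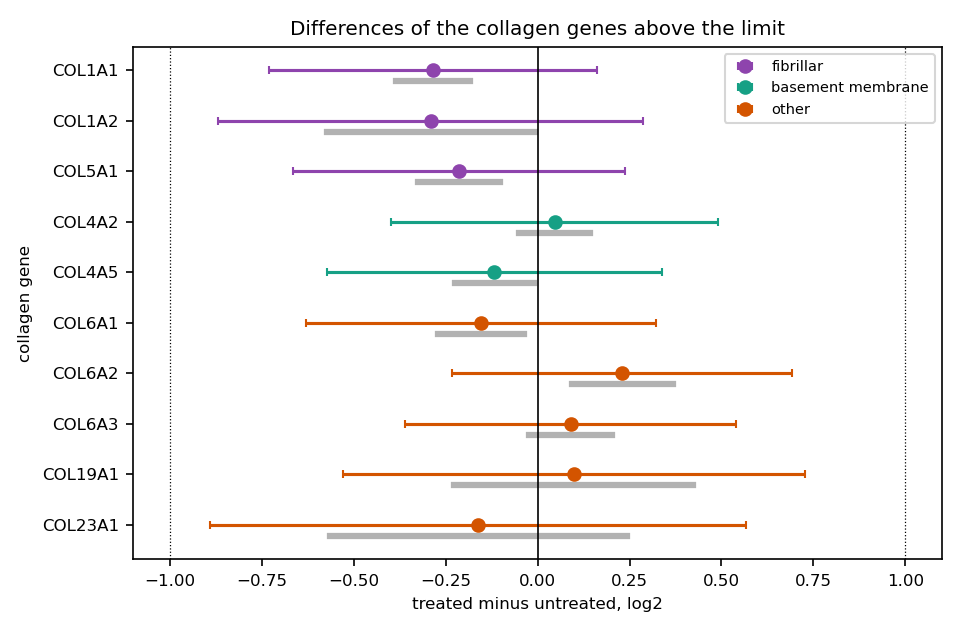
Treated minus untreated log2 expression (horizontal axis) of the 10 collagen genes above background, coloured by class, with 95% confidence intervals from limma. Grey bars span the values with each array left out and dotted lines mark 2-fold, and every interval includes 0 and stays inside the dotted lines.

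The 31 collagen genes below background ranged from 2.57 (COL8A2) to 6.85 (COL26A1) over all arrays. They include COL12A1, COL14A1 and COL16A1 of the fibril-associated class, COL13A1 and COL25A1 of the transmembrane class, and the multiplexins COL15A1 and COL18A1, the last of which carries the endostatin fragment. Groups did not overlap for 6 of these 31, 3 higher in treated cells (COL27A1, COL6A6 and COL9A3) beside 12.5% of the named genes below background, and 3 lower (COL8A1, COL10A1 and COL15A1) beside 21.2%. These genes were named after their values were seen, and values below background carry no reading of change.

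Genes that modify, export, cross-link and bind collagen were described in 7 lists. Of their 65 measured genes 41 (63.1%) were above background, of which 27 had positive and 14 negative differences, with a median of 0.14, and 0.077 without untreated replicate 2. The positive share was 65.9%, beside 58.8% of all named genes above background. Without treated replicate 1 it was 56.1% beside 55.1%, and without untreated replicate 2 it was 63.4% beside 51.5%. Over all 4 arrays left out in turn, 23 to 32 of the 41 were positive. No pathway gene passed limma at an adjusted p under 0.05. At an unadjusted p under 0.05 there were 4 of the 41 (BMP1, LOXL1, TGM2 and ITGA11), all higher in treated cells, where 1.89% of the named genes above background were so.

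Chain modification and folding, by hydroxylases, a glycosyltransferase and chaperones, had 14 of 17 genes above background, with 11 positive and 3 negative differences and a median of 0.18. The groups did not overlap for 6 of the 14, all higher in treated cells, beside 21.2% higher and 11.4% lower among the named genes above background. PLOD3, a lysyl hydroxylase that also glycosylates collagen, stood at 10.92 and 10.84 in treated cells and 10.37 and 10.53 in untreated cells, a difference of 0.43 (interval -0.0079 to 0.87). P3H4, a partner of the lysyl hydroxylases, had a difference of 0.32 (interval -0.14 to 0.78). COLGALT1, a collagen galactosyltransferase, had 0.34 (interval -0.19 to 0.86), which was 0.099 without untreated replicate 2.

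Procollagen export had 6 of 7 genes above background, with 4 positive differences and a median of 0.038, which turned to -0.033 without treated replicate 1 and -0.0090 without untreated replicate 2. MIA2, an export factor of the endoplasmic reticulum, had a difference of 0.51 (interval -0.19 to 1.22), and 0.072 without untreated replicate 2. On that array its value of 6.61 was the lowest of the 4 and below the array's own limit. KLHL12, a ubiquitin ligase adaptor for large transport vesicles, had 0.15, and -0.014 without treated replicate 1. SEC24D, a coat protein of those vesicles, had -0.12, and -0.014 without untreated replicate 2.

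Propeptide cleavage had 3 of 8 genes above background and cross-linking 3 of 6. BMP1, the procollagen C-proteinase, stood at 8.13 and 8.17 in treated cells and 7.67 and 7.57 in untreated cells. Its value on untreated replicate 2 was below that array's own limit. The BMP1 groups did not overlap, by a difference of 0.54 (interval 0.11 to 0.97, limma adjusted p = 0.948). Its enhancer PCOLCE had a difference of 0.22 (interval -0.22 to 0.67), and ADAMTS3, a procollagen N-proteinase, -0.12, which turned to 0.061 without treated replicate 2 and 0.015 without untreated replicate 2. LOXL1, a lysyl oxidase-like enzyme, stood at 10.33 and 10.38 in treated cells and 9.90 and 9.59 in untreated cells, a difference of 0.61 (interval 0.14 to 1.08, limma adjusted p = 0.948). TGM2, a transglutaminase, had 0.72 (interval 0.0090 to 1.43), and 0.34 without treated replicate 2. PXDN, which cross-links type IV collagen, had 0.16, and -0.0072 without treated replicate 1, and LOX itself was above background on no array.

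Collagen receptors had 6 of 9 genes above background, with 3 positive and 3 negative differences. ITGA11, the α11 integrin subunit that binds fibrillar collagen, had 10.82 and 10.60 in treated cells and 10.08 and 9.77 in untreated cells. The difference of ITGA11 was 0.78 (interval 0.29 to 1.27, limma adjusted p = 0.948). MRC2, an endocytic collagen receptor, had a difference of 0.32 (interval -0.14 to 0.79), and DDR1, a collagen-activated kinase, 0.15 (interval -0.29 to 0.60). Without untreated replicate 1 they were 0.17 for MRC2 and 0.048 for DDR1. Fibril partners had 5 of 7 genes above background with a median of -0.014, which was -0.047 without treated replicate 1 and 0.011 to 0.032 with any of the other 3 arrays left out. Among them FN1, fibronectin, had 0.38 and 0.011 without untreated replicate 2, LUM, the fibril-binding lumican, -0.16 and 0.032 without untreated replicate 1, and BGN, biglycan, 0.12. Basement membrane partners had 4 of 11 above background with a median of -0.038, which ranged from -0.11 without treated replicate 1 to 0.043 without treated replicate 2 and was also positive without untreated replicate 1 (0.029). LAMC1, the laminin γ1 chain, had 0.26 (0.10 without untreated replicate 2). NID1, which links laminin to type IV collagen, had -0.15 (-0.040 without treated replicate 2), and NID2 had -0.19 (-0.0038 without untreated replicate 2).

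**Figure D5:**
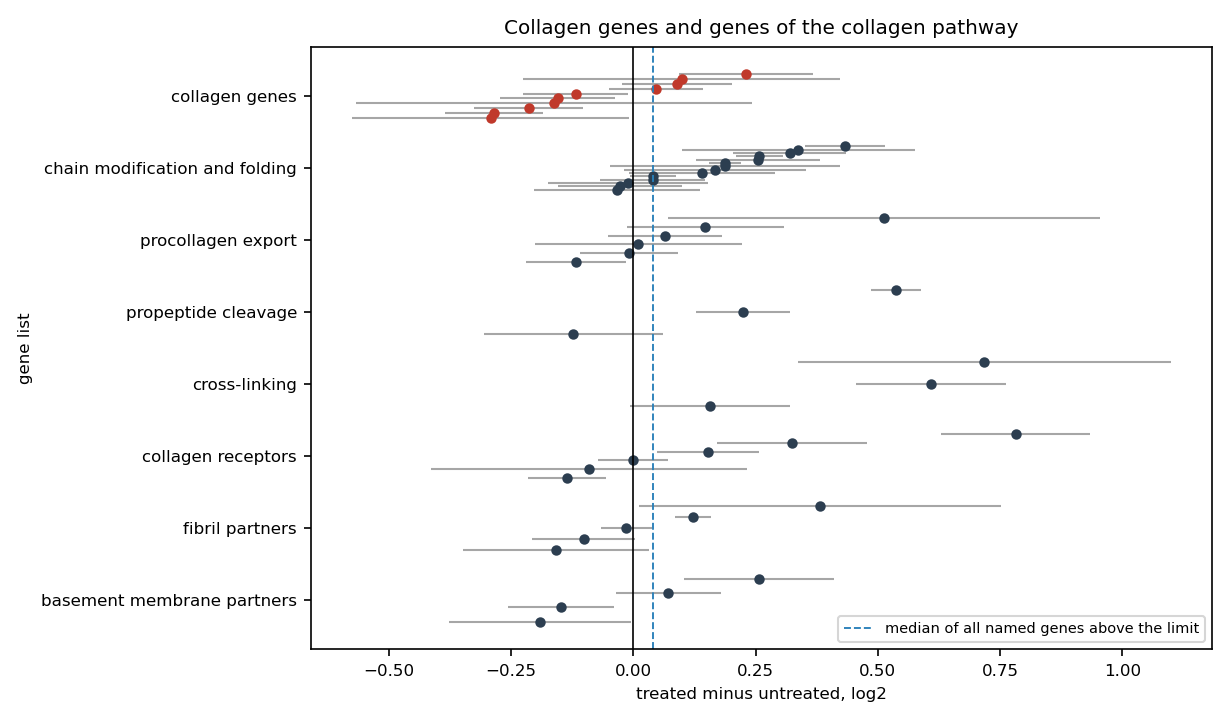
Treated minus untreated log2 expression (horizontal axis) of the collagen genes (red) and of genes of 7 collagen pathway lists (dark blue) above background. Grey lines span the values with each array left out, and the dashed blue line is the median of all named genes above background. All 3 cross-linking genes lie to its right, but PXDN was -0.0072 without treated replicate 1. No gene shown passed limma at an adjusted p under 0.05.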

How the data were processed

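The deposited values are log2 expression values per probe set from 4 arrays, made with RMA in Transcriptome Analysis Console (version 4.0.1.36), per the submitters' processing notes. This method corrects background, makes the arrays' distributions alike and summarises probes, so a shift shared by most genes would be removed. That the scale is log2 was inferred from their range. The file lists 24351 probe sets, of which 2903 are controls and were not tested, and 21448 were fitted with no filter on dim signals. Of these, 17709 had 1 gene symbol in the platform annotation and 3739 are unnamed here. For 20 symbols with several probe sets, the brightest was used. A genome build for the probe sets was not given in the sources used here.

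Treated and untreated arrays were compared with limma 3.58.1 (lmFit, then eBayes; R 4.3.3), two-sided, with group as the only term and Benjamini-Hochberg adjustment over all 21448 probe sets. Degrees of freedom were 2 residual and 4.90 prior, and the fit was tested on simulated data. An exact permutation test of 2 arrays against 2 cannot give a two-sided p below 0.333. The number of arrays limits the precision.

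The members, the pathway lists and the background limit were chosen with earlier results of these data known. Every collagen gene above its array's limit on at least 1 array is named with its values, and from each pathway list up to 3 genes above background with the smallest limma p. COL5A2, COL4A1 and COL4A6 fall outside this rule and are given with values, chosen after those were seen, as chain or promoter partners of members above background. Other names are said to be outside the rule or are listed as below background.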

Additional observations from a re-analysis of the deposited data

How the results depend on the processing

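No collagen gene and no probe set was called under quantile normalization, median centring, cyclic loess, either filter on dim probe sets, trended or robust variance, the replicate number as a block or any array left out, nor any collagen gene when probe sets of a symbol were averaged. With unadjusted p-values 1089 probe sets and 3 collagen genes were called. The number of collagens above background was 10 in every scaling and with every array left out, 13 at the 90th percentile of the negative controls, 8 where all 4 arrays had to pass, and 4 at the 99th (COL1A2, COL6A1, COL6A2 and COL23A1), where no basement membrane median exists and 28.9% of all named genes remained. The median of the other collagens was then -0.15, and it was -0.028 where all 4 arrays had to pass.

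With an array left out, the medians ranged from -0.12 to 0.027 for the collagens above background, from -0.39 to -0.10 for fibrillar, from -0.12 to 0.047 for basement membrane and from -0.037 to 0.24 for other collagens. Of 40 such differences of single members 6 turned sign, in COL4A2 (-0.050 to 0.14), COL6A3 (-0.023 to 0.20), COL19A1 (-0.23 to 0.42) and COL23A1 (-0.57 to 0.24), and the cause was not tested. All 100 differences under the other alternatives kept their sign. Only those under quantile normalization, median centring and cyclic loess could have changed, because the remaining alternatives leave the differences of these genes as they are. Where an array is left out, the lone array of its group is assumed to vary like the others.

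Same-numbered arrays did not deviate together (r = -8e-04 across all probe sets and 0.022 across those above background). The values thus gave no sign of pairing by number. With so few arrays they cannot show whether same-numbered samples were handled together. The replicate block gave 0 calls, as did the main fit, so that count does not decide the question. Counts and medians of pathway and marker genes without an array were added after the data were seen. Values near the negative controls limit what can be read from COL1A1, COL5A1 and COL6A3, and from the pathway genes BMP1, TGM2 and MIA2.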
